A study of Homo sapiens with 4 samples.

Results

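FOXM1, the MYB-related genes MYBL1 and MYBL2, and the genes of the MuvB subunits LIN9, LIN37, LIN52 and LIN54 were followed in RPE-1 cells during merbarone treatment. The 7 genes were taken by their current NCBI symbol from the 23459 genes listed in each count file, and all 7 passed the filter that retained 12559 genes. RPE-1 is a human line of retinal pigment epithelium that does not come from a tumor; it was immortalized with hTERT, and its label gives it as wild type. All cells were serum starved for 48 h in medium with little serum, which arrests them in G0/G1, and were then treated with 200 μM merbarone, a catalytic inhibitor of DNA topoisomerase II. RNA-Seq gave 2 libraries at 4 h and 2 at 8 h. Every group therefore received the drug, the untreated samples were not analysed here, and time in merbarone cannot be told apart from time in low serum.

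MuvB is a small complex that sits on the promoters of cell cycle genes and changes partners as cells move through the cycle. In resting cells it binds the pocket proteins p130 or p107 with E2F4 or E2F5 and a DP protein, and this assembly, called DREAM, represses its targets. In proliferating cells MuvB lets go of them and binds B-MYB, the product of MYBL2, and later FOXM1, and then activates genes of G2 and mitosis. LIN54 contacts DNA at the cell cycle genes homology region (CHR), LIN52 is the contact for the pocket protein or B-MYB, LIN37 is needed for repression, and LIN9 joins the complex to B-MYB.

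The gene promoters that the data bear on are shown first, because LIN54 reads the CHR and E2F proteins read GC-rich words beside it. RefSeq promoter sequences of build GRCh38.p14 were used for 5 of the 7 genes, MYBL2, LIN9, LIN37, LIN52 and LIN54. The sequences run from 5′ to 3′ on the strand of the gene. The MYBL2 (chr20:43666864-43667113, plus strand), LIN54 (chr4:83010835-83011084, minus strand) and LIN52 (chr14:74084706-74084955, plus strand) stretches are the 250 bases before a start site. LIN9 (chr1:226309207-226309236, minus strand) and LIN37 (chr19:35748620-35748649, plus strand) are given as 30 bases around a CHR word. Capitals mark the CHR words TTTGAA or TTCGAA and E2F-like words that contain GGCGGGA, TTCCCGCC or TTTCCCGC on either strand.
MYBL2: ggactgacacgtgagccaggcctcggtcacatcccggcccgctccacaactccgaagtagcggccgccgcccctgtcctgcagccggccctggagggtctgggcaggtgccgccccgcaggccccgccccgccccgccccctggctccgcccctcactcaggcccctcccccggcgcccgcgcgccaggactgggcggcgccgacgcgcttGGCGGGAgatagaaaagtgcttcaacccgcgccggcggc
LIN54: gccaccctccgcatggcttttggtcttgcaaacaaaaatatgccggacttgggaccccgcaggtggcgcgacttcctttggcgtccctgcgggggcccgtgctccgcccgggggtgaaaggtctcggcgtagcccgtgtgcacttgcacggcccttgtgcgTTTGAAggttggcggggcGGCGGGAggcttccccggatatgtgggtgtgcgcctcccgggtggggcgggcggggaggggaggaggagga
LIN52: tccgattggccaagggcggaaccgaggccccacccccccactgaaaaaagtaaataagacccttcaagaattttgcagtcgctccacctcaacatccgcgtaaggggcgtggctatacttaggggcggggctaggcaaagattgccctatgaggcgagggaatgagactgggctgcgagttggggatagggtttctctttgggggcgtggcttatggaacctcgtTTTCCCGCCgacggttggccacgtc
LIN9: gcgagctccgcaTTCGAAcctccctcgcaa
LIN37: acgaagctcatcTTTGAActgtccccgcct

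A CHR word stood before a start site of 3 of these 5 genes, LIN9, LIN37 and LIN54, and of 13.6% of the 10183 retained genes with a promoter sequence. The MYBL2 and LIN52 stretches held none. The set of E2F words fixed for the search (TTTCGCGC, TTTGGCGC, TTCCCGCC and TTTCCCGC, both strands) matched LIN52 alone among the 5, and matched 9% of the retained genes. The shorter word GGCGGGA, added after the MYBL2 promoter had been seen, matched all 5 genes and 27.7% of the retained genes. It overlaps the longer words in LIN52. MYB words were matched as AACGG in LIN9 (27.5% of the retained genes) and as AACTG in LIN9 and LIN37 (34.5%). These are matches of letters within 250 bases of annotated starts, and several starts were searched for LIN9, LIN37 and LIN54. For LIN9 and LIN37 the CHR word stood before the most downstream start alone, and lay after their other annotated starts. For LIN54 it stood before every start searched.

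The libraries held between 8064450 and 10324697 counts, and the smaller ones were those of 8 h. Values below are counts normalized by TMM, which scales each library for its size and composition, and differences are log2 fold changes (log2FC) of 8 h over 4 h. Differentially expressed genes (DEGs) had an absolute log2FC above 1 and an adjusted p below 0.05 in the quasi-likelihood test of edgeR, with Benjamini-Hochberg adjustment over all retained genes. Genes past the adjusted p alone are called changed. With 2 libraries per time an exact permutation test cannot give a p below 0.333, so the test rests on the spread shared across genes. Of the retinal pigment epithelium markers, MITF (669 to 882 counts) and OTX2 (132 to 193) were present, and PMEL was low (7 to 12). RPE65 had at most 7 counts, BEST1 6, TYRP1 3, RLBP1 2 and TTR 1, and TYR had 0 in every library. KRT8 (3042 to 3966), KRT18 (1927 to 3881) and VIM (88366 to 91660), taken as markers of an epithelial line, were high. Markers of blood and endothelial cells, and the epithelial marker EPCAM, had at most 8 counts.

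Between 4 h and 8 h the genes of the activating partners MYBL2 and FOXM1 fell, MYBL1 rose slightly, LIN9 fell, and the other LIN genes did not pass the test. None of the 7 was a DEG in edgeR, Limma-Voom or DESeq2. Of the genes tested, 3.88% were DEGs lower at 8 h and 1.45% higher in edgeR, 3.85% and 1.45% in Limma-Voom, and 3% and 1.2% in DESeq2. At an unadjusted p below 0.05 in edgeR there were 4 of the 7 genes, near the 47.3% of all retained genes. At the adjusted p alone, edgeR called 3 of the 7 lower and 1 higher, beside 18.8% and 19.9% of all genes. Limma-Voom gave the same counts for the 7 genes, beside 18.6% and 19.8%. DESeq2 called 2 lower and 0 higher, beside 12.5% and 14.9%. Both 8 h libraries lay below both 4 h libraries for 3 of the 7 genes and above for 1, and for 34.9% and 34.8% of the retained genes. The median log2FC of the 7 genes was −0.091, beside −0.0024 for all retained genes.

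**Figure D1:**
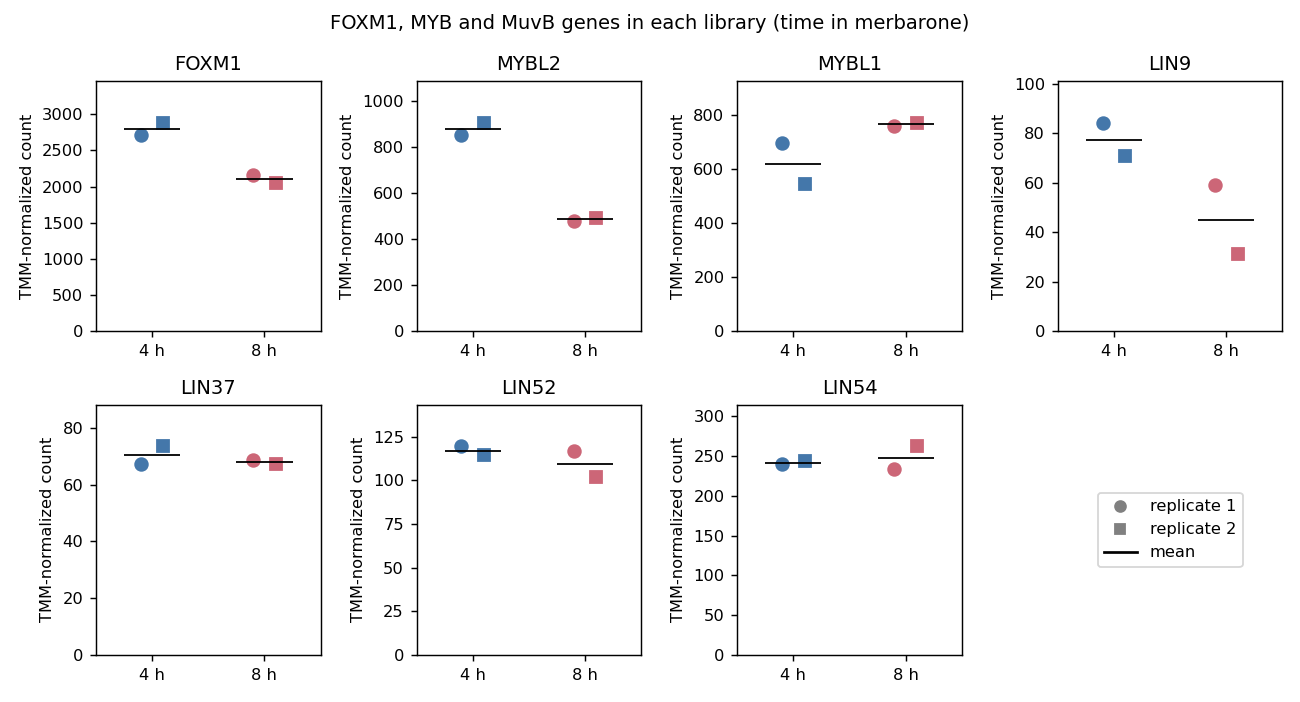
TMM-normalized counts (vertical axes, each from 0) of the 7 genes in the 4 libraries, by time in merbarone. Points are libraries and black lines are means of 2; the 8 h points of FOXM1, MYBL2 and LIN9 lie below both 4 h points, those of MYBL1 lie above, and those of LIN37, LIN52 and LIN54 overlap the 4 h points.

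MYBL2 (chromosome 20, 42295659 to 42345135, plus strand, hg19) encodes B-MYB. At 4 h its normalized count was 849 in replicate 1 and 904 in replicate 2, and at 8 h it was 479 and 492, in the same order. Both 8 h libraries lay far below both 4 h libraries, with 55.4% of the 4 h level left. The log2FC was −0.85 (standard error 0.09, 95% interval −1.05 to −0.66, edgeR adjusted p = 8.7e-07), which placed MYBL2 at percentile 6.23 of all log2FC counted from the lowest. Across the other tests, scalings and filters its log2FC ran from −0.96 to −0.85.

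FOXM1 (chromosome 12, 2966846 to 2986340, minus strand) encodes the forkhead factor that drives late cell cycle genes. The 4 h libraries had 2710 and 2882 normalized counts, and the 8 h libraries 2155 and 2043. The times did not overlap, but the change was smaller than that of MYBL2, with 75.1% of the 4 h level left. The log2FC was −0.41 (standard error 0.08, 95% interval −0.57 to −0.25, edgeR adjusted p = 0.000289), and its interval did not overlap that of MYBL2. FOXM1 shares 782 exonic bases with ITFG2 on the opposite strand, and whether reads were counted by strand is not given in the sources used here. ITFG2 had 318 and 297 normalized counts at 4 h, fewer than FOXM1, and 237 and 179 at 8 h. Its part in the FOXM1 counts was not tested.

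MYBL1 (chromosome 8, 67474410 to 67526482, minus strand) encodes A-MYB, a relative of B-MYB known for its role in male germ cells. The 4 h libraries had 695 and 544 normalized counts, and the 8 h libraries 759 and 772. The 8 h libraries agreed closely and lay above both 4 h libraries, which were spread. The log2FC was 0.30 (standard error 0.11, 95% interval 0.08 to 0.53, edgeR adjusted p = 0.0299). The call did not hold without replicate 2 of 4 h (log2FC 0.14, edgeR adjusted p = 0.446), in DESeq2 (adjusted p = 0.0923), with library size alone in place of TMM (log2FC 0.20, adjusted p = 0.145) or after removal of the trend with expression level (log2FC 0.23, adjusted p = 0.0954).

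LIN9 (chromosome 1, 226418850 to 226497570, minus strand) was the LIN gene that fell. Its raw counts were 94 and 78 at 4 h, against 58 and 25 at 8 h. After normalization the 4 h libraries had 84.4 and 70.7, and the 8 h libraries 59.3 and 31.1. The times did not overlap, but the 8 h replicates differed from each other by more than the 4 h ones did. The log2FC was −0.75 (standard error 0.26, 95% interval −1.30 to −0.20, edgeR adjusted p = 0.0304). Without replicate 2 of 8 h it was −0.39 (adjusted p = 0.261), and without replicate 1 of 8 h it was −1.32, past the DEG threshold (adjusted p = 0.000562). The call was also lost without replicate 1 of 4 h (log2FC −0.63, adjusted p = 0.197), without replicate 2 of 4 h (log2FC −0.87, adjusted p = 0.0619), in DESeq2 (adjusted p = 0.128) and after removal of the trend with expression level (log2FC −0.58, adjusted p = 0.0887).

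The 3 other LIN genes overlapped between the times. LIN54 (chromosome 4, 83831126 to 83934079, minus strand), the CHR-binding subunit, had 240 and 244 normalized counts at 4 h and 234 and 262 at 8 h. Its log2FC was 0.034 (95% interval −0.24 to 0.31, edgeR adjusted p = 0.858), and it was −0.072 with library size alone in place of TMM and −0.046 without replicate 2 of 8 h. LIN52 (chromosome 14, 74551659 to 74668196, plus strand) had 119 and 114 at 4 h and 117 and 102 at 8 h, with an interval of −0.47 to 0.29. LIN37 (chromosome 19, 36239262 to 36245420, plus strand) had 67.3 and 73.4 at 4 h and 68.5 and 67.1 at 8 h, with an interval of −0.50 to 0.39. Together the intervals of these genes reach no further than −0.50 and 0.39. LIN37 has exons in common with 2 other annotated genes that are not listed in the count files, on either strand.

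Levels were compared between genes as TMM-normalized CPM per kilobase of the canonical transcript. At 4 h FOXM1 was highest, at 82.1 ± 3.57 (SD, n = 2), followed by MYBL2 at 34.3 ± 1.52, MYBL1 at 12.5 ± 2.17 and LIN37 at 7.85 ± 0.483. LIN52 at 4.24 ± 0.132 and LIN54 at 4.12 ± 0.0513 overlapped and could not be ordered with this length, and LIN9 was lowest at 2.70 ± 0.336. FOXM1, MYBL2 and MYBL1 thus had more counts per kilobase than the LIN subunits in every library. Reads over exon junctions were not split in alignment, which takes more counts from genes with short exons. LIN37 has 9 exons in 935 bases of canonical transcript, MYBL1 has 16 in 5161, and this loss was not corrected. At 8 h FOXM1 was at 61.6 ± 2.33, MYBL2 at 19.0 ± 0.370, MYBL1 at 15.5 ± 0.182, LIN37 at 7.56 ± 0.113, LIN54 at 4.23 ± 0.337, LIN52 at 3.96 ± 0.377 and LIN9 at 1.57 ± 0.695. The order was the same apart from LIN52 and LIN54, which overlapped at both times. The place of LIN37 depends on the length taken, since it overlapped the next gene when the longest transcript was used, and was below LIN54 and LIN52 with the union of all exons. With that union LIN54 lay above LIN52 without overlap, at 3.73 against 3.21 at 4 h and 3.83 against 3.01 at 8 h.

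**Figure D2:**
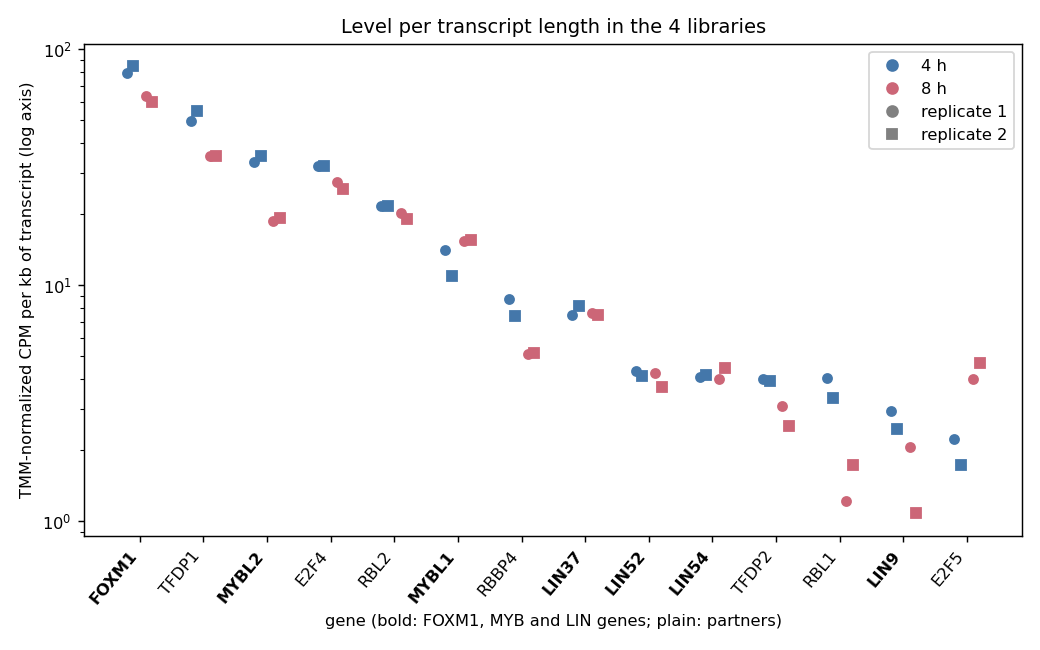
TMM-normalized CPM per kilobase of canonical transcript (log axis) of the 7 genes (bold) and of their partners in DREAM and MuvB (plain), ordered by the 4 h mean. Each point is a library; FOXM1 is highest at 82.1 at 4 h, and LIN9 and E2F5, at 2.70 and 1.99, are lowest at 4 h.

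Ratios within a library do not depend on scaling between libraries. MYBL2 made up 55.0% (95% exact binomial interval 52.6 to 57.3) and 62.4% (60.0 to 64.8) of the MYBL1 and MYBL2 counts at 4 h. At 8 h the share was 38.7% (35.9 to 41.5) and 38.9% (35.9 to 42.0). The balance of raw counts thus passed from MYBL2 to MYBL1, although per kilobase MYBL2 stayed above, by 2.36 and 3.21 times at 4 h and 1.22 and 1.23 times at 8 h. Of the FOXM1 and MYBL2 counts together, MYBL2 made up 23.9% in both 4 h libraries, and 18.2% (16.7 to 19.7) and 19.4% (17.7 to 21.2) at 8 h. Of the LIN9 and LIN54 counts, LIN9 made up 26.0% and 22.5% at 4 h, against 20.2% (15.7 to 25.3) and 10.6% (6.97 to 15.2) at 8 h, where the replicates disagreed. These intervals cover counting error only.

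The other genes of DREAM and MuvB, called partners here, fell in most cases. Of these 7 genes, 6 changed at the adjusted p, 5 lower and 1 higher, and 2 were DEGs. Of all retained genes, 18.8% were lower and 19.9% higher at the adjusted p, and 3.88% and 1.45% were DEGs lower and higher. RBL1, which encodes p107, had 221 and 181 normalized counts at 4 h and 66.5 and 94.4 at 8 h (log2FC −1.34, standard error 0.19, edgeR adjusted p = 2.16e-05). RBL2, which encodes p130, the pocket protein that predominates in resting cells, had 1011 and 1005 at 4 h and 939 and 892 at 8 h. Its log2FC of −0.14 did not pass in this fit (95% interval −0.31 to 0.04, edgeR adjusted p = 0.204), but it was −0.24 and passed with library size alone (adjusted p = 0.0279) and after removal of the trend with expression level (adjusted p = 0.0342). RBL1 made up 17.9% and 15.3% of the RBL1 and RBL2 counts at 4 h, against 6.61% and 9.57% at 8 h.

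Of the E2F genes that work in DREAM, E2F5 rose from 42.2 and 32.6 normalized counts at 4 h to 75.7 and 88.2 at 8 h (log2FC 1.12, standard error 0.24, edgeR adjusted p = 0.00106). It fell short of the DEG threshold without replicate 2 of 4 h, at a log2FC of 0.95. E2F4, the more abundant, had 645 and 650 at 4 h and 555 and 518 at 8 h (log2FC −0.27, edgeR adjusted p = 0.0317), a call that was lost in DESeq2 (adjusted p = 0.124) and when any library but replicate 1 of 8 h was left out (adjusted p from 0.11 to 0.153). The DP genes TFDP1 (log2FC −0.56, adjusted p = 4.01e-05) and TFDP2 (log2FC −0.50, adjusted p = 0.00332) fell in edgeR. RBBP4, which encodes the histone-binding subunit of MuvB, had 663 and 561 at 4 h and 387 and 389 at 8 h (log2FC −0.66, standard error 0.11, edgeR adjusted p = 9.07e-05). The RBBP4 call held without each of the 4 libraries and in DESeq2, whereas that of LIN9 was lost in DESeq2 and without any library but replicate 1 of 8 h.

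**Figure D3:**
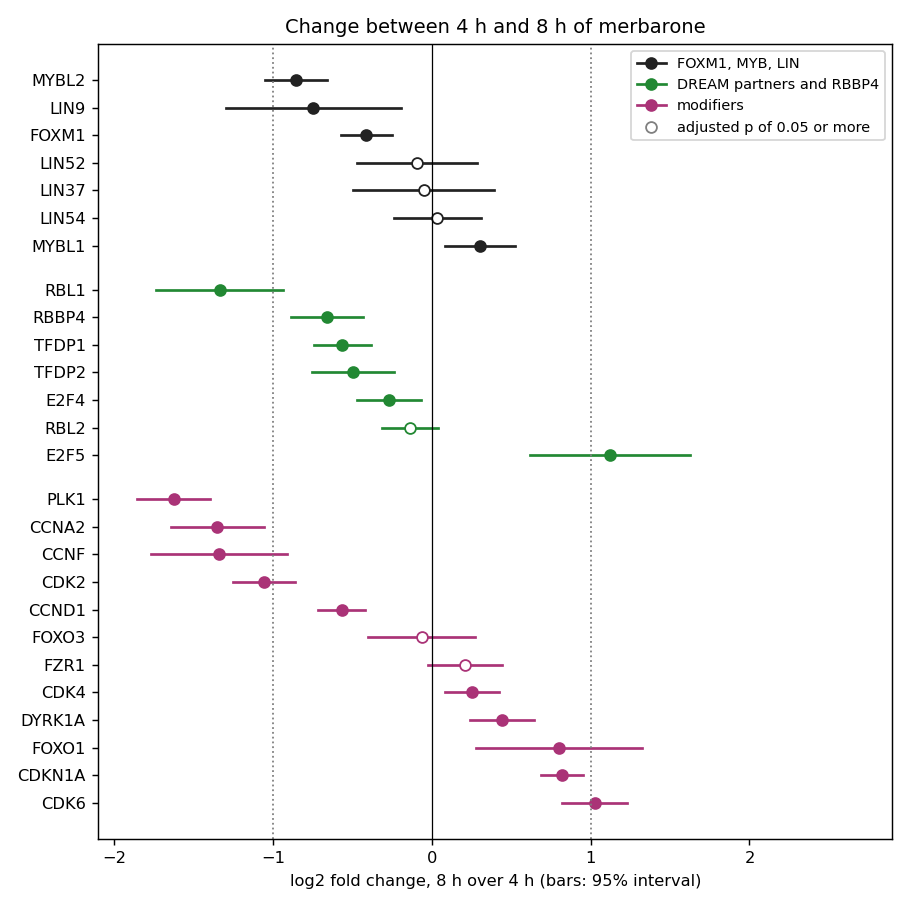
Log2FC of 8 h over 4 h (horizontal axis) with 95% intervals from edgeR for the 7 genes (black), their partners (green) and genes whose products act on them (purple). Open points did not pass an adjusted p of 0.05 and dotted lines mark a log2FC of 1 in either direction; LIN37, LIN52 and LIN54 are centred near 0, and RBL1 and E2F5 lie furthest out among the partners.

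Among 12 genes whose products act on FOXM1, B-MYB or MuvB, 5 fell and 5 rose at the adjusted p, and 4 and 1 of them were DEGs. The shares of all retained genes were 18.8% and 19.9% at the adjusted p, and 3.88% and 1.45% as DEGs. Genes that activate B-MYB or FOXM1 through phosphorylation were among those that fell, with PLK1 (polo-like kinase) going from 690 and 771 normalized counts to 240 and 232 (log2FC −1.63, standard error 0.11, edgeR adjusted p = 2.38e-09). CCNA2, which encodes cyclin A2, fell by 1.35 on the log2 scale (adjusted p = 4.29e-07), CDK2 by 1.06 (adjusted p = 6.67e-08) and CCND1, which encodes cyclin D1, by 0.57 (adjusted p = 3.58e-06) in edgeR. CCNF, which encodes cyclin F, a protein that binds B-MYB, also fell (log2FC −1.34, edgeR adjusted p = 4.54e-05). The cyclin D kinase genes moved the other way. CDK6 had 620 and 514 at 4 h and 1118 and 1194 at 8 h (log2FC 1.03, standard error 0.10, edgeR adjusted p = 1.59e-07), and dropped below the DEG threshold with library size alone (0.92), with trend removal (0.93) and without replicate 2 of 4 h (0.90) or of 8 h (0.98).

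CDK4 rose by less (log2FC 0.25, edgeR adjusted p = 0.0191), and its call was lost with library size alone (adjusted p = 0.168), with trend removal (adjusted p = 0.251) and without either of 2 libraries that were replicate 1 of their time. DYRK1A, the kinase that phosphorylates LIN52 and so promotes DREAM, had 599 and 524 at 4 h and 772 and 753 at 8 h (log2FC 0.44, standard error 0.10, edgeR adjusted p = 0.00127). Without replicate 2 of 4 h its adjusted p was 0.0507. CDKN1A, which encodes the CDK inhibitor p21, was abundant at 4 h, with 36830 and 34018. At 8 h it had 61310 and 63568 (log2FC 0.82, edgeR adjusted p = 1.21e-08). FOXO1, a forkhead gene whose product opposes FOXM1, rose (log2FC 0.80, edgeR adjusted p = 0.0162) on 38 to 73 raw counts, and was not called in DESeq2 (adjusted p = 0.109) or without replicate 1 of either time. FOXO3 (95% interval −0.40 to 0.28) and FZR1, an activator of the ligase that degrades FOXM1 (−0.03 to 0.44), did not pass. Without replicate 1 of 8 h FZR1 was called higher (log2FC 0.38, edgeR adjusted p = 0.00612).

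Most genes of the target lists used here fell. A list of 36 G2 and mitosis genes that B-MYB, FOXM1 and MuvB are known to activate had 34 genes lower at the adjusted p, 24 of them DEGs, and 0 higher. Among all retained genes 18.8% were lower at the adjusted p and 3.88% were DEGs lower at 8 h. The median log2FC of the list was −1.16, beside −0.85 for MYBL2, −0.41 for FOXM1 and −0.0024 for all retained genes. BUB1B, a spindle checkpoint kinase gene, went from 385 and 439 normalized counts to 92.0 and 90.7 (log2FC −2.17, standard error 0.14, edgeR adjusted p = 2.1e-09). KIF20A (−2.04), DLGAP5 (−2.01) and HMMR (−1.72), which act on the mitotic spindle, had the next largest falls among DEGs with a mean of at least 100. The 2 genes of the list that did not pass were CKS1B, on 8 to 29 raw counts, and PTTG1 (95% interval of its log2FC from −0.40 to 0.05), which passed with library size alone (edgeR adjusted p = 0.0448) and without replicate 1 of 8 h (adjusted p = 0.0208). PLK1 is in this list as well as among the genes that act on FOXM1.

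A list of 34 G1/S genes, which DREAM represses through E2F sites, had 32 genes lower, 20 of them DEGs, and 0 higher, with a median of −1.09. Again, 18.8% of all retained genes were lower and 3.88% were DEGs lower at 8 h. CLSPN, a gene of the replication checkpoint, went from 501 and 435 to 144 and 140 normalized counts (log2FC −1.72, standard error 0.13, edgeR adjusted p = 1.01e-08). MCM10 (−1.70), EXO1 (−1.70) and DTL (−1.68), genes of replication and repair, had the next largest falls among DEGs with a mean of at least 100. Below that mean CCNE2, which encodes cyclin E2, fell furthest in the list, from 69.1 and 68.0 normalized counts to 8.18 and 13.7 (log2FC −2.67, edgeR adjusted p = 3.83e-06), and was singled out after its values were seen. CCNE1, which encodes cyclin E1, had a log2FC of 0.29 that did not pass (edgeR adjusted p = 0.37), and E2F1 had −0.20 (adjusted p = 0.0683), which passed with library size alone (adjusted p = 0.0071), with trend removal (adjusted p = 0.0096) and with the replicate number as a block (adjusted p = 0.0453). Both lists hold genes for which a fall had been seen in these libraries before, so their counts are a description. In bulk RNA fewer cycling cells and less RNA per cell cannot be told apart, for the targets and for MYBL2 and FOXM1 alike.

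**Figure D4:**
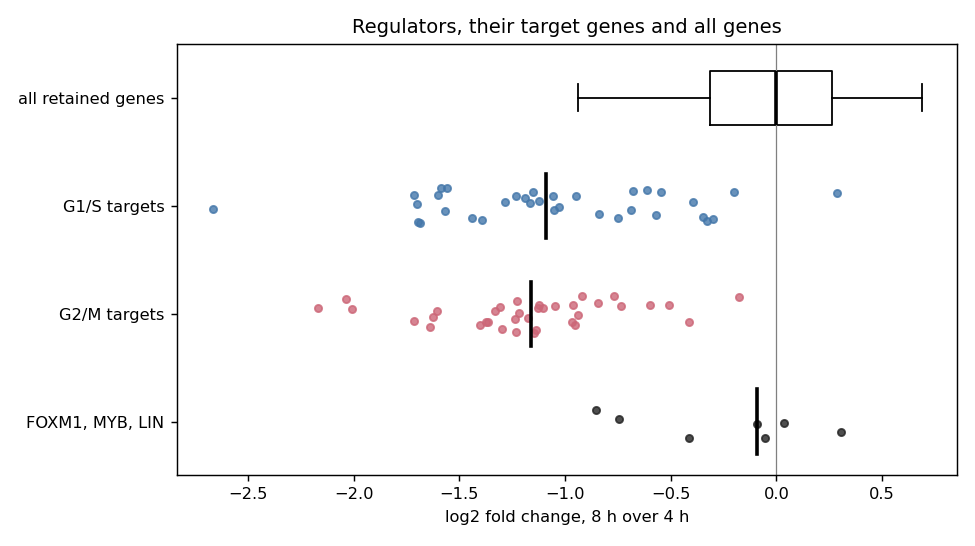
Log2FC of 8 h over 4 h (horizontal axis) of the 7 genes, the 36 G2/M targets and the 34 G1/S targets, a point per gene with the median as a black bar (vertical scatter within a row has no meaning). The box of all 12559 retained genes spans the quartiles (−0.31 and 0.26) with whiskers at the percentiles 5 and 95 (−0.94 and 0.69); the medians of both target lists, −1.16 and −1.09, lie below the lower whisker.

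The summed counts of the lists, as CPM without TMM, showed the same in each library. The 36 G2/M targets took 2979 and 2916 CPM of the 4 h libraries, and 1297 and 1161 CPM of the 8 h libraries. For the 34 G1/S targets the sums were 2816 and 2824 CPM, then 1529 and 1425 CPM. The 7 regulator genes together took 514 and 523 CPM, then 391 and 376 CPM, most of it FOXM1.

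The CHR word printed above for LIN54, LIN9 and LIN37 was found for 18 of the 30 G2/M targets with a promoter sequence (60%), for 1 of the 29 G1/S targets (3.45%) and for 13.6% of the retained genes. The fixed E2F words were found for 4 of the 30 (13.3%) and 13 of the 29 (44.8%), beside 9%. Both lists were made of known targets of these regulators. Differences in these shares may therefore follow from how the lists were chosen, and they describe the lists only. Within the G2/M list, the median log2FC was −1.15 for the 18 genes with a CHR word and −1.19 for the 12 without. LIN9 and LIN37, with the word before their most downstream start alone, had log2FC of −0.75 and −0.052. LIN54, with the word before every start searched, had 0.034, and MYBL2, whose printed stretch held no exact CHR word, had −0.85. Near matches of the word were not searched, and its bearing on these changes was not tested. Over all retained genes with a promoter sequence the medians were −0.052 for the 1381 with a CHR word and 8.9e-05 for the 8802 without.

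The genes with the most similar profile were found by the Euclidean distance between log2-CPM values over the 4 libraries, each gene centred on its own mean, among 10563 genes whose mean normalized count was 50 or more. For FOXM1 they were MRTO4 (distance 0.0077 on the log2 scale), TPM3 (0.0084), TTC7A (0.024) and MAP3K4 (0.032). For MYBL2 they were ZMIZ1-AS1 (0.029), TBC1D2B (0.035), BRCC3 (0.041) and FRMD6-AS1 (0.044). For MYBL1 they were TTC33 (0.0083), NEK7 (0.031), CD164 (0.037) and SPTLC1 (0.038). With only 4 libraries and this many genes, near matches are common, and none of these 12 genes belongs to the target lists.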

How the data were processed

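RNA-Seq of polyadenylated RNA was available for 4 libraries of RPE-1 cells, 2 biological replicates at 4 h and 2 at 8 h of merbarone. After a FASTQC check the authors aligned reads to hg19 by Bowtie 1.2.0 (version per the labels), kept those with a single position, and deposited raw counts per NCBI Gene identifier. The counting tool and annotation are not given in the sources used here. Bowtie does not split reads over introns, and reads that fit several near-identical copies were dropped. This lowers counts in all libraries, but not alike in all genes. Whether the loss was equal at 4 h and 8 h was not tested. Symbols came from RefSeq (23308 of 23459 genes), and positions and transcript lengths from GENCODE release 44 on GRCh37.

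Lowly expressed genes, without a CPM above 1 in 2 or more libraries, were removed. Counts were normalized by TMM and tested in R 4.3.3 by the edgeR 4.0.16 quasi-likelihood method, with time as the only term. Normalized counts are TMM-scaled CPM times the mean effective library size. Standard errors are the log2FC divided by the square root of F. Alternatives were Limma-Voom (limma 3.58.1), which the study used, DESeq2 1.42.0, library size alone, RLE, other filters, glmTreat, a replicate block, removal of the trend of each library with mean log2-CPM, and leaving out each library. On simulated counts of 12448 genes with 200 changed by a log2FC of 1.5 in either direction, edgeR recovered 95.5% with 1 false call. The simulation took its spread from the same fit and counted only calls past an absolute log2FC of 1. It therefore does not bear on calls at the adjusted p alone. The genes, lists and tests were chosen with earlier results of these data known. Named are the 7 genes, all partners and modifiers, the 4 largest falls and 2 largest rises (none rose) among target DEGs with a mean count of at least 100, the 4 nearest profiles, and, chosen after their values were seen, ITFG2 and the targets CKS1B, PTTG1, CCNE1 and E2F1.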

Additional observations from a re-analysis of the deposited data

How the results depend on the processing

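None of the 7 genes was a DEG under 12 of the 13 alternatives, and without replicate 1 of 8 h LIN9 was, so that leaving out a library gave 0 to 1 DEGs. With glmTreat, which tests against a log2FC of 1, there were 84 DEGs in all genes, 0 partners, 1 modifier, 10 G2/M targets and 8 G1/S targets, in place of 669, 2, 5, 24 and 20. Partner DEGs numbered 1 to 2 when a library was left out. Small changes turned sign. LIN54 was −0.072 with library size alone. With trend removal LIN37 was 0.11, LIN52 0.036 and FOXO3 0.045. When each library was left out in turn, LIN54 ran from −0.046 to 0.12, LIN37 from −0.12 to 0.013 and FOXO3 from −0.13 to 0.012. The ratio of FOXM1 to MYBL2 per kilobase, 2.40 at 4 h and 3.25 at 8 h, was 1.80 and 2.44 with the union of exons as length. With library size alone the median log2FC of all genes was −0.11, and there were 641 DEGs lower and 125 higher, in place of 487 and 182, and trend removal gave 352 and 253. Leaving out a library leaves a time with a lone library, which is assumed to vary like the others. FOXM1 and MYBL2 passed an adjusted p of 0.05 under every alternative other than glmTreat, which tests another hypothesis.

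Libraries of both times carry the same replicate numbers. In a fit with the replicate block there were 691 DEGs in all genes, with 0, 2, 5, 24 and 20 in the 7 genes, the partners, the modifiers, the G2/M targets and the G1/S targets, and the only named gene whose call changed was E2F1, which then passed (adjusted p = 0.0453). Deviations of same-numbered libraries correlated at 0.043 over all retained genes and at 0.117 over those whose mean was 100 or more, and with 2 pairs this does not settle whether the numbers pair the libraries. Depth was low for LIN9, with 25 counts in its lowest library.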
